A study of Mus musculus with 6 samples.

Results

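The mitochondrial antioxidant enzymes described here are 10 genes of the 24415 in the deposited count table: Sod2, Prdx3, Prdx5, Txn2, Txnrd2, Gpx1, Gpx4, Gsr, Glrx2 and Cat. They were chosen by name, through their mouse gene identifiers, and all 10 were found and passed the filter on low counts. RNA was sequenced from inguinal white adipose tissue, a fat depot under the skin in which brown-like, heat-producing cells can appear. The animals were 3 Hsp20 knockout (Hsp20 KO) mice, lacking by their label the small heat shock protein made from Hspb6, and 3 WT mice as controls, all 12 weeks old, untreated, not fasted and on a C57BL/6 background. The sources used here do not give the knockout allele, the C57BL/6 substrain or the hour of sampling.

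Respiring mitochondria leak electrons to oxygen, and superoxide dismutase 2 turns the resulting superoxide into hydrogen peroxide in the matrix. The peroxide is then reduced by peroxiredoxins, recharged by thioredoxin 2 and thioredoxin reductase 2, or by glutathione peroxidases, recharged through glutathione and glutathione reductase. NADPH supplies the electrons for both routes, and brown fat, rich in mitochondria and in fatty acid oxidation, relies on them heavily. The group is mitochondrial to different degrees: Sod2, Prdx3, Txn2 and Txnrd2 act in mitochondria, Prdx5, Gpx1, Gpx4, Gsr and Glrx2 also have forms or pools elsewhere, and catalase resides mainly in peroxisomes. A count per gene adds all these forms together.

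The members did not move as a block. Txnrd2 rose 1.39-fold in the libraries labelled Hsp20 KO and was the only member past the threshold; Gpx4, Sod2 and Txn2 lay above WT in every labelled knockout library without passing it, and Gpx1 and Gsr lay below WT in every one. Of the 10 members, 1 rose and 0 fell by edgeR's quasi-likelihood test at a Benjamini-Hochberg adjusted p under 0.05 over all 15994 genes tested, where 7.65% of genes were called in either direction, 4.23% as higher and 3.42% as lower. With unadjusted p under 0.05 the test had 4 members higher and 2 lower, against 13.3% and 12.7% of all genes. DESeq2 called 3 higher (Sod2, Txnrd2 and Gpx4) and 1 lower (Gpx1), against 7.1% and 6.4% of all genes. limma-voom called 1 higher and 0 lower, against 7.29% of genes in either direction. Without the library labelled Hsp20 KO replicate 1 edgeR called 3 higher (Sod2, Txnrd2 and Gpx4) and 0 lower, against 10.3% of genes in either direction. The median log2 change of the members was 0.16 (0.235 without that library), with 6 of 10 above 0, against 0.001 and 50.1% above 0 over all genes tested. The share of 1 in 10 by edgeR's adjusted p is close to its background and is no result about the group. The member shares by DESeq2 and by unadjusted p stand above theirs, but the members were chosen with earlier results of these data known. The excess is also not particular to them: of 22 other mitochondrial genes 11 were higher by DESeq2 and 13 by unadjusted p.

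Among the members, 3 are selenoproteins by the annotation: Gpx1, Gpx4 and Txnrd2 carry an in-frame TGA that is read as selenocysteine at the active site. Their sequences around that codon are shown because these 3 selenoproteins did not share a direction in the data. The selenocysteine codon is in capitals, read on the plus strand of GRCm38 from GENCODE transcripts.
Txnrd2 (chr16:18477772-18477774): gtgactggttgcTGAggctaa
Gpx1 (chr9:108339451-108339453): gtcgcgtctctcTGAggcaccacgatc
Gpx4 (chr10:80054737-80054739): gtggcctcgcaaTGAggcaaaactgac
In Txnrd2 the codon is number 526 of 527, with a glycine codon between it and the stop codon shown at the end of the line. It is codon 47 of 201 in Gpx1 and codon 73 of 197 in the longest principal form of Gpx4, which carries the mitochondrial leader.

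Library totals ran from 14078936 to 27937060 counts in the labelled knockout group and from 26146472 to 32648746 in WT. Hspb6, the targeted gene, was at 8.86, 1.51 and 3.94 CPM (read counts put on one library size with TMM factors) in the libraries labelled Hsp20 KO replicates 1 to 3, against 12.6, 9.43 and 8.95 CPM in the 3 WT libraries. The library labelled Hsp20 KO replicate 1 thus lay just under the lowest WT library, and it was also the nearest to WT on the first principal component (-17.3, against -37.03 and -34.99 in the other labelled knockout libraries and 27.2 to 32.2 in WT). By Hspb6 alone it goes against its label, and Hspb6 did not pass (log2 change -1.08 ± 0.51, edgeR adjusted p = 0.227). Other genes placed it with the labelled knockouts. Ctse was at 55.0 CPM in it, against 2.06 to 2.84 CPM in WT, and Sbsn at 10.2 against 52.7 to 64.3 CPM. These 2 genes have the lowest adjusted p in a test that counted this library as a knockout. Whether the label is wrong or the allele keeps transcript was not tested, so every direction here refers to libraries as labelled. Without the library labelled Hsp20 KO replicate 1 the log2 changes were 0.183 for Prdx3, 0.287 for Txn2, -0.277 for Gpx1, -0.212 for Gsr, -0.172 for Glrx2 and -0.168 for Cat, none past the threshold (edgeR adjusted p between 0.0808 and 0.484). The other 4 members' values without it stand with their results. The fat cell markers were abundant in all libraries, with a summed level of 12790 to 17860 CPM in the labelled knockouts and 12500 to 15240 CPM in WT, and 0 of 10 were called (2 higher and 1 lower by edgeR with unadjusted p under 0.05, and 1 higher by DESeq2). In bulk tissue, fewer cells of a type and less RNA per cell cannot be told apart.

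**Figure D1:**
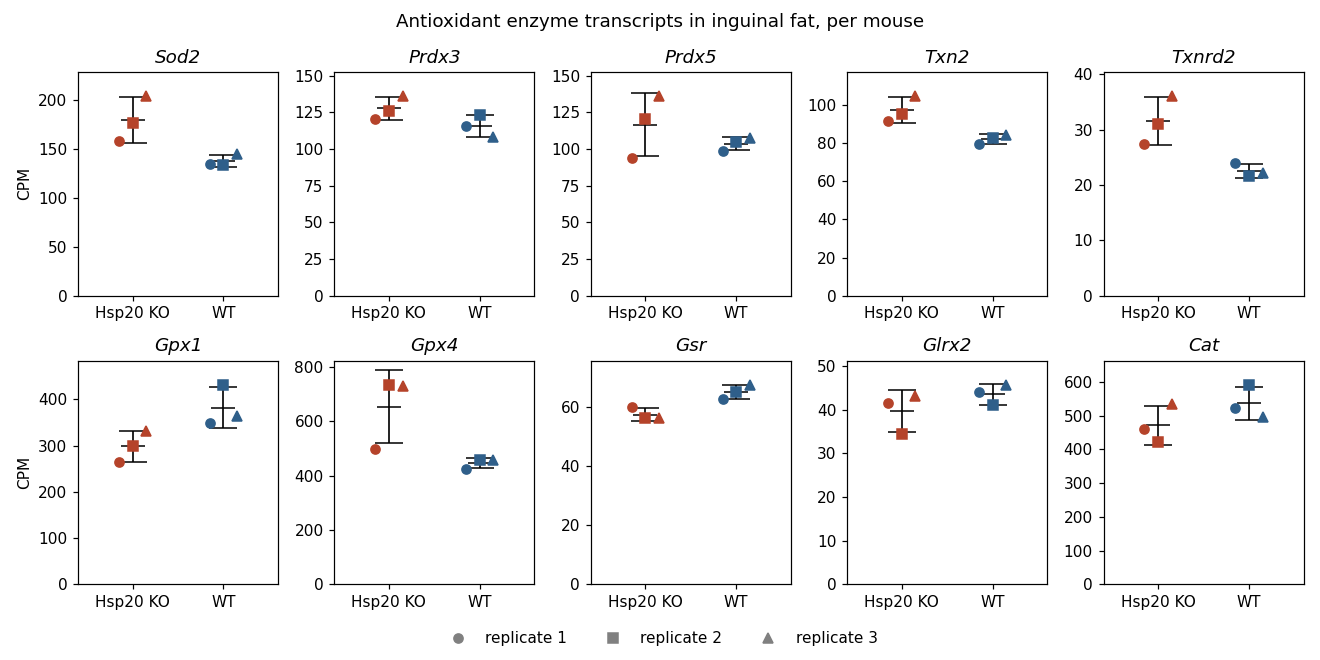
Level of each member in CPM (vertical axes start at 0), with 1 point per mouse, marker shapes for the replicate numbers, and bars for the mean ± SD of 3 libraries labelled Hsp20 KO (left) or WT (right). Txnrd2, Sod2, Gpx4 and Txn2 have all 3 labelled knockout points above WT, Gpx1 and Gsr have all 3 below, and the groups overlap in Prdx3, Prdx5, Glrx2 and Cat.

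Superoxide dismutase 2, the manganese enzyme of the matrix, is encoded by Sod2 (gene ID 20656, chr17:13006846-13040063, plus strand). Its level was 158, 177 and 204 CPM in the libraries labelled Hsp20 KO replicates 1 to 3, against 134, 134 and 145 CPM in WT replicates 1 to 3. All labelled knockout libraries lay above all WT libraries, with replicate 3 the highest and replicate 1 the lowest. The log2 change was 0.38 ± 0.11 (SE; 95% interval 0.14 to 0.63), which did not pass (edgeR adjusted p = 0.067). Without the library labelled Hsp20 KO replicate 1 the log2 change was 0.47 and passed (edgeR adjusted p = 0.0272), and with any other library left out the adjusted p was between 0.103 and 0.195. Sod1, the copper and zinc enzyme of the cytosol, differed by 0.08 ± 0.09 on the log2 scale (edgeR adjusted p = 0.611).

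The thioredoxin branch held the one call. Txnrd2 (gene ID 26462, chr16:18426384-18479073, plus strand), the selenoenzyme that passes electrons from NADPH to thioredoxin 2, had 759, 675 and 486 counts in the libraries labelled Hsp20 KO replicates 1 to 3 and 615, 661 and 730 in WT replicates 1 to 3. Scaled to library size these were 27.4, 30.9 and 36.1 CPM in the labelled knockouts, against 23.9, 21.6 and 22.1 CPM in WT, with no overlap. Its log2 change was 0.48 ± 0.11 (SE; 95% interval 0.22 to 0.74), higher in 3 of 3 libraries (edgeR adjusted p = 0.0437). The call depends on nearly every library: it held without the one labelled Hsp20 KO replicate 1 (log2 change 0.57, adjusted p = 0.0184) and ended without labelled knockout replicate 2 (0.0852) or 3 (0.0786) and without WT replicate 1 (0.0656), 2 (0.143) or 3 (0.161). The sources used here do not say whether counting used strand, so reads from the opposite strand over its exons cannot be told apart from its own.

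Txn2, thioredoxin 2, is the small matrix protein that Txnrd2 recharges. It had 91.8, 95.4 and 104.8 CPM in the libraries labelled Hsp20 KO replicates 1 to 3, against 79.3, 82.5 and 84.4 CPM in WT replicates 1 to 3. The groups did not overlap, and the log2 change of 0.25 ± 0.08 (95% interval 0.07 to 0.42) did not pass (edgeR adjusted p = 0.095). Non-overlap is common here: it held for 6 of the 10 members and for 32.5% of all genes tested. The labelled knockouts lay wholly above WT in 4 members and 16.9% of all genes, and wholly below in 2 members and 15.6% of all genes.

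The peroxiredoxins, the consumers of thioredoxin 2, overlapped between the groups. Prdx3, the peroxidase confined to mitochondria, had 121, 126 and 136 CPM in the libraries labelled Hsp20 KO replicates 1 to 3, against 116, 123 and 108 CPM in WT replicates 1 to 3 (log2 change 0.14 ± 0.08, 95% interval -0.05 to 0.34, edgeR adjusted p = 0.322). Prdx5, found in mitochondria, peroxisomes and cytosol, had 93.6, 120.1 and 136 CPM in the labelled knockouts and 98.6, 105 and 108 CPM in WT (log2 change 0.17 ± 0.13, 95% interval -0.14 to 0.48, edgeR adjusted p = 0.462). Without the library labelled Hsp20 KO replicate 1 the log2 change was 0.307, and without labelled replicate 3 it was 0.0518 (edgeR adjusted p = 0.0849 and 0.823). Its labelled knockout replicate 1 was below all WT libraries and the other labelled knockouts were above them. Prdx5 shares 409 exon bases with Trmt112, an activator of methyltransferases on the opposite strand, whose log2 change was 0.08 ± 0.07 (edgeR adjusted p = 0.48), and how far reads of one enter the count of the other was not tested.

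The glutathione peroxidases lay on opposite sides of WT. Gpx4 (gene ID 625249, chr10:80047166-80056439, plus strand) reduces lipid peroxides in membranes and restrains ferroptosis, a death by lipid oxidation. It had 497, 734 and 728 CPM in the libraries labelled Hsp20 KO replicates 1 to 3, against 425, 457 and 456 CPM in WT replicates 1 to 3. Labelled knockout replicate 1 lay just above the WT libraries, and the other labelled knockouts stood well above them. The log2 change was 0.55 ± 0.16 (95% interval 0.18 to 0.93), the highest of the 10 members, and did not pass (edgeR adjusted p = 0.08). Without the library labelled Hsp20 KO replicate 1 it was 0.71 and passed (edgeR adjusted p = 0.00641); with any other library left out the adjusted p was between 0.159 and 0.216.

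Gpx1 (gene ID 14775, chr9:108338903-108340343, plus strand), the abundant peroxidase of cytosol and mitochondria, had 265, 299.8 and 331 CPM in the libraries labelled Hsp20 KO replicates 1 to 3, against 350.0, 432 and 365 CPM in WT replicates 1 to 3. All labelled knockout libraries were below all WT libraries, and the log2 change of -0.36 ± 0.13 (95% interval -0.65 to -0.07) did not pass (edgeR adjusted p = 0.125). The ratio of Gpx4 to Gpx1 counts, formed after their values were seen, was 1.88, 2.45 and 2.20 in the labelled knockouts and 1.21, 1.06 and 1.25 in WT. These do not overlap (means 2.18 ± 0.286 and 1.17 ± 0.102, SD, n = 3 each; exact permutation test, two-sided, p = 0.1, the smallest that 3 against 3 allows; 0.3 adjusted over the 6 ratios reported).

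Gpx1 is plentiful in red cells and macrophages, as Cat is in red cells. Of the blood markers 6 of 7 fell, with a summed level of 3967 to 4840 CPM in the labelled knockouts and 8996 to 10330 CPM in WT. The count was 3 without WT replicate 2 or WT replicate 3, and 7 without the library labelled Hsp20 KO replicate 1. Macrophage markers had 0 of 10 called by edgeR (7 lower with unadjusted p under 0.05, and 5 lower by DESeq2), but 7 lower without the library labelled Hsp20 KO replicate 1, with sums of 1128 to 1458 CPM in the labelled knockouts and 1385 to 1581 CPM in WT. Their part in the level of Gpx1 was not tested.

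Gsr, glutathione reductase, had 59.8, 56.0 and 56.1 CPM in the libraries labelled Hsp20 KO replicates 1 to 3, against 62.5, 64.9 and 67.4 CPM in WT replicates 1 to 3. The groups did not overlap, but the difference was small (log2 change -0.18 ± 0.07, 95% interval -0.35 to -0.01, edgeR adjusted p = 0.162). Glrx2, a glutaredoxin that removes glutathione from proteins, had 41.6, 34.3 and 43.2 CPM in the labelled knockouts and 43.98, 41.0 and 45.7 CPM in WT, with overlap (log2 change -0.13 ± 0.10, 95% interval -0.37 to 0.10, edgeR adjusted p = 0.452). Cat, catalase, which splits hydrogen peroxide into water and oxygen, had 459, 421 and 534 CPM in the labelled knockouts and 522, 592 and 497 CPM in WT. Its groups overlapped as well (log2 change -0.19 ± 0.13, 95% interval -0.48 to 0.11, edgeR adjusted p = 0.395).

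**Figure D2:**
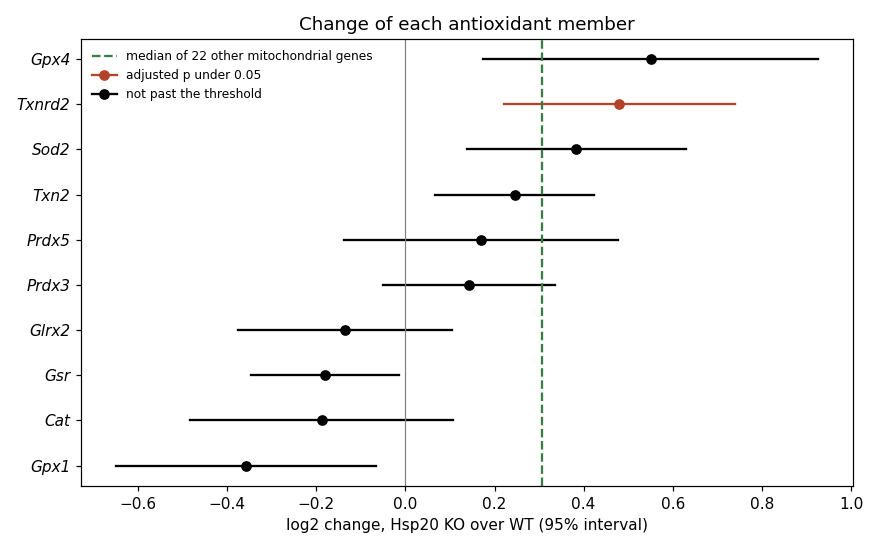
Log2 change (Hsp20 KO over WT, horizontal axis) of each member with its 95% interval from the edgeR fit, ordered by size; the dashed line is the median of 22 other mitochondrial genes, 0.31. Txnrd2, in colour, is the member past the threshold, and the intervals of Prdx3, Prdx5, Glrx2 and Cat include 0.

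The levels per length spanned a wide range and kept nearly the same order in both groups. Per kilobase of the principal transcript, Gpx4 was highest in the libraries labelled Hsp20 KO at 681 ± 141 CPM per kb, followed by Gpx1 at 279 ± 30.9, Cat at 181 ± 21.95, Prdx5 at 92.4 ± 17.0 and Prdx3 at 86.4 ± 5.36 (SD, n = 3). In WT the same genes led at 465 ± 19.4, 357 ± 40.9, 206 ± 18.9, 82.1 ± 3.62 and 78.3 ± 4.91 CPM per kb. Below them in both groups came Txn2, then Sod2 and Gsr, then Txnrd2 and Glrx2. Neighbours whose libraries overlapped were Prdx5 and Prdx3 in both groups, and Gsr and Sod2, and Glrx2 and Txnrd2, in WT. At the low end Txnrd2 stood at 16.5 ± 2.28 CPM per kb in the labelled knockouts and 11.8 ± 0.635 in WT, and Glrx2 at 11.9 ± 1.42 and 13.05 ± 0.72. With the union of all annotated exons as length, Gpx1 and Gpx4 overlapped in WT (265 ± 30.4 and 259 ± 10.8 CPM per kb), so the lead of Gpx4 there depends on the length used. By that length Prdx3 stood above Prdx5 in both groups, without overlap (78.3 ± 4.91 and 48.4 ± 2.14 CPM per kb in WT). Gsr likewise stood above Txn2 in WT (23.6 ± 0.895 and 19.5 ± 0.607 CPM per kb), so these orders also depend on the length.

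Mitochondrial members can be set beside their partners in the cytosol as count ratios within a library, which no scaling of library size can move. The ratio of Txnrd2 to Txnrd1, the cytosolic reductase, was 0.296, 0.34 and 0.368 in the libraries labelled Hsp20 KO replicates 1 to 3, against 0.246, 0.207 and 0.179 in WT replicates 1 to 3, with no overlap (exact permutation test, two-sided, p = 0.1, the smallest possible; 0.3 adjusted over 6 ratios). Without the library labelled Hsp20 KO replicate 1 the log2 difference of the ratio was 0.762 for Txnrd2 to Txnrd1 (0.676 with all libraries) and 0.988 for Gpx4 to Gpx1 (0.886 with all). Sod2 to Sod1 was 0.584 ± 0.0778 in the labelled knockouts and 0.473 ± 0.0264 in WT, and Txn2 to Txn1 was 0.935 ± 0.0454 and 0.828 ± 0.0634 (SD, n = 3 each; exact permutation p = 0.2 for both). Prdx3 to Prdx1 differed least of these 4, at 0.481 ± 0.0153 in the labelled knockouts and 0.45 ± 0.0429 in WT (exact permutation p = 0.3). Txnrd1, Txn1 and Prdx1 themselves had log2 changes of -0.21, 0.06 and 0.04, none past the threshold (edgeR adjusted p = 0.238, 0.73 and 0.822).

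**Figure D3:**
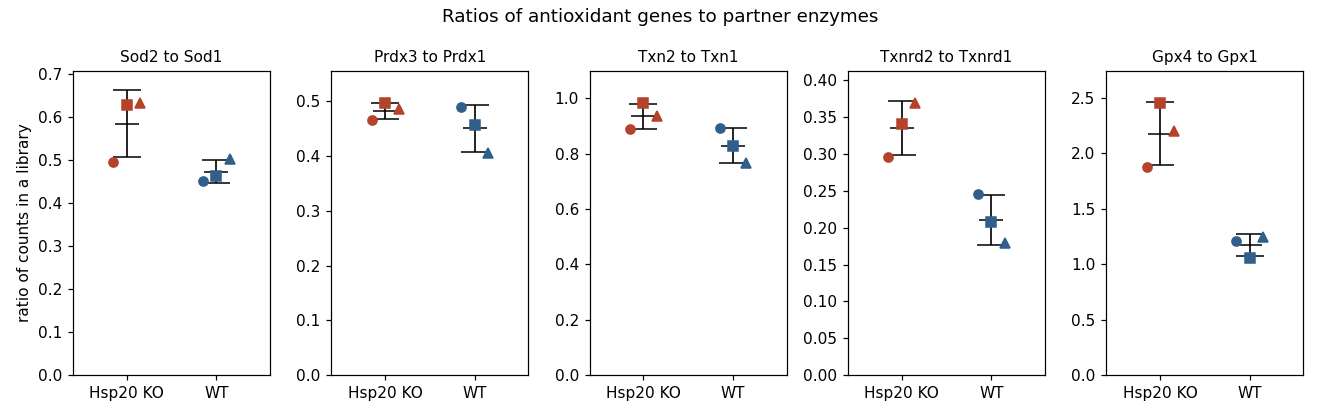
Ratio of read counts of 2 genes within each library (vertical axes from 0, no unit), 1 point per mouse, with mean ± SD bars for libraries labelled Hsp20 KO (left) and WT (right). The groups are apart for Txnrd2 to Txnrd1 and Gpx4 to Gpx1 and overlap for the other 3 ratios.

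Other mitochondrial transcripts set a scale for the members. In a list of 22 genes of import, membranes, genome upkeep and shape, 4 rose (Vdac1, Tomm40, Phb and Cycs, between 1.31-fold and 1.89-fold) and 0 fell by edgeR (13 higher and 0 lower with unadjusted p under 0.05, and 11 higher and 0 lower by DESeq2), with a median log2 change of 0.31 and 21 of 22 above 0. At its low end Tomm22 and Polg had log2 changes of -0.0903 and 0.0009 (edgeR adjusted p = 0.6585 and 0.9953). Cs, among the 2 highest, had 0.56 and did not pass (edgeR adjusted p = 0.0618). Relative to the mean log2 level of these 22 genes in the same library, the labelled knockouts minus WT came to -0.65 on the log2 scale for Gpx1, -0.48 for Cat, -0.47 for Gsr, -0.43 for Glrx2 and -0.15 for Prdx3. In these 5 the groups did not overlap (exact permutation p = 0.1 each, two-sided, the smallest possible, and 0.2 adjusted over the 10 members). The 22 genes themselves exceeded their WT mean by 0.17, 0.31 and 0.39 log2 units in labelled knockout replicates 1 to 3. A gene with no change of its own would therefore fall on this measure. The share of all genes that do not overlap on it is not given here, so the non-overlap is no trait particular to these 5. Txn2 (-0.05), Sod2 (0.09), Txnrd2 (0.18) and Gpx4 (0.24) overlapped between groups on this measure, as did Prdx5 (-0.14).

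**Figure D4:**
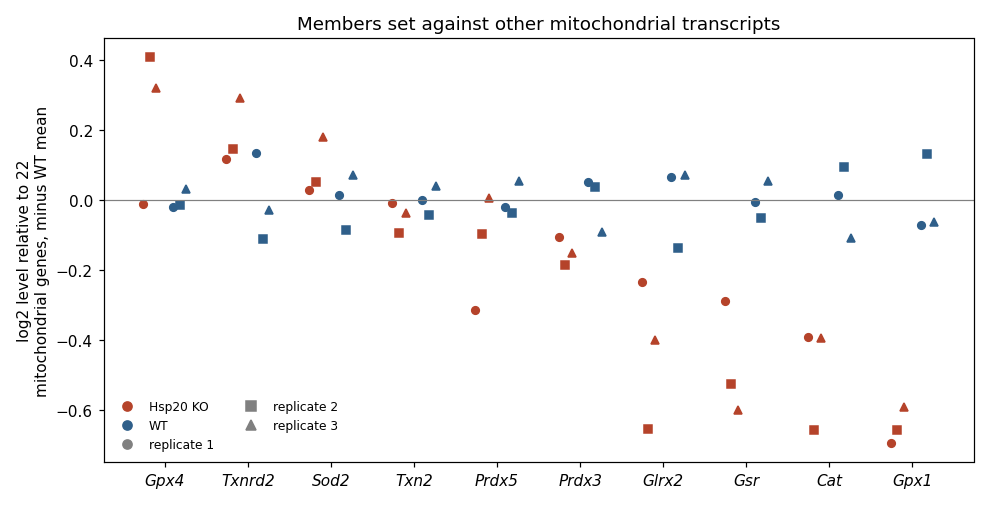
Log2 level of each member relative to the mean of 22 mitochondrial genes in the same library, minus its WT mean (vertical axis); points are mice, coloured by label with the Hsp20 KO libraries left of WT. Prdx3, Glrx2, Gsr, Cat and Gpx1 lie below WT in all 3 labelled knockout libraries, and Txnrd2, Sod2 and Txn2 mix with WT.

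The labelled knockout libraries also differed among themselves. Replicate 1 was the lowest of the 3 and replicate 3 the highest for Sod2, Prdx3, Prdx5, Txn2, Txnrd2 and Gpx1. The 22 mitochondrial genes exceeded their WT mean by 0.17, 0.31 and 0.39 log2 units in labelled knockout replicates 1 to 3, and the median brown fat marker by 1.08, 2.33 and 2.31. Of 10 brown fat markers 7 rose and 0 fell (4 with limma-voom, 2 with the replicate block, 2 without WT replicate 2 or 3, 4 without labelled knockout replicate 2 or 3), with summed levels of 239.8 to 832 CPM in the labelled knockouts and 91.9 to 130.0 CPM in WT. Ppargc1a and Zic1 did not rise, with log2 changes of 0.0157 and -0.3023 (edgeR adjusted p = 0.9637 and 0.7724). Zic1 was scarce, at a mean of 0.3154 CPM in the labelled knockouts and 0.4317 CPM in WT. Ucp1, the uncoupling protein, was at 19.1, 165 and 308 CPM in the libraries labelled Hsp20 KO replicates 1 to 3, against 2.64, 1.76 and 1.06 CPM in WT replicates 1 to 3. Markers of other tissues were low or mixed: skeletal muscle summed to 73.7 to 119.5 CPM in the labelled knockouts against 109 to 895 CPM in WT, where replicate 1 held the 895 (0 of 10 called by edgeR, with 8 lower with unadjusted p under 0.05, and 0 by DESeq2), and epidermis to 13.1 to 15.6 CPM in the labelled knockouts against 55.7 to 69.2 CPM in WT. That sum was mostly Sbsn (10.3 CPM in the labelled knockouts and 60.3 CPM in WT); of the 3 tested Sbsn and Krtdap fell and Krt10 differed by 0.22 on the log2 scale (edgeR adjusted p = 0.662), and with no filter 5 of 8 were above 0 with a median of 0.305. Endothelial markers summed to 819 to 969 CPM in the labelled knockouts and 971 to 1052 CPM in WT (1 of 8 fell), B cell markers to 507 to 995 and 770 to 792 CPM, and T cell markers to 343 to 511 and 348 to 435 CPM. The part of these cell types in the members' levels was not tested.

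**Figure D5:**
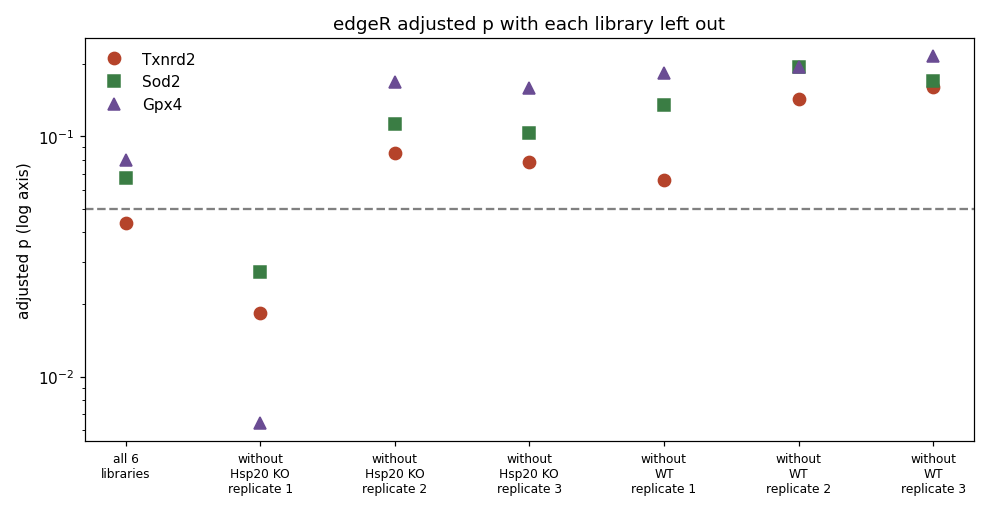
edgeR adjusted p (log axis) of Txnrd2, Sod2 and Gpx4 with all 6 libraries and with each library left out; the dashed line is the threshold of 0.05. Without the library labelled Hsp20 KO replicate 1 all 3 genes pass, and without any other library none does.

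Both reducing routes depend on mitochondrial NADPH, and transcripts of several genes that can supply it were higher. NADPH itself was not measured. Of 9 genes 3 rose and 0 fell (edgeR; 4 higher and 0 lower with unadjusted p under 0.05, and 4 and 0 by DESeq2), with a median log2 change of 0.33. Nnt, the transhydrogenase of the inner membrane that makes matrix NADPH, was at 35.9, 33.6 and 23.8 CPM in the libraries labelled Hsp20 KO replicates 1 to 3, against 16.1, 17.0 and 16.3 CPM in WT replicates 1 to 3 (log2 change 0.92 ± 0.15, edgeR adjusted p = 0.0165). Some C57BL/6 substrains carry a deletion in Nnt, and a difference of substrain between the groups cannot be told apart from genotype here. Idh2, the matrix isocitrate dehydrogenase that makes NADPH, was at 130.2 ± 16.5 CPM in the labelled knockouts and 94.8 ± 7.96 CPM in WT (SD, n = 3 each; edgeR adjusted p = 0.0494), and Me3, a mitochondrial malic enzyme, at 3.50 ± 0.894 and 1.68 ± 0.359 CPM (edgeR adjusted p = 0.0454). At the other end Glud1 and Mthfd2 had log2 changes of -0.09 and 0.03 (edgeR adjusted p = 0.583 and 0.931).

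Glutathione genes had 2 of 10 higher and 0 lower (edgeR; 3 and 0 with unadjusted p under 0.05, and 3 and 0 by DESeq2). Slc25a39, which carries glutathione into mitochondria, was at 144 ± 17.6 CPM in the labelled knockouts and 97.9 ± 5.79 CPM in WT (edgeR adjusted p = 0.0252), and Oplah, which recycles oxoproline to glutamate, at 151 ± 18.7 and 102.5 ± 8.61 CPM (SD, n = 3 each; edgeR adjusted p = 0.0282). Slc7a11, the cystine carrier, differed by -0.12 ± 0.14 on the log2 scale (edgeR adjusted p = 0.635). Chac1, which breaks glutathione down, differed by 0.69 and Ggct by -0.19 on that scale (edgeR adjusted p = 0.238 and 0.559).

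Antioxidant enzymes outside the members had 1 of 21 higher, Gpx8, an enzyme of the endoplasmic reticulum (67.1 ± 5.72 CPM in the labelled knockouts and 48.1 ± 3.29 CPM in WT, SD, n = 3 each; edgeR adjusted p = 0.0268), and 0 lower (edgeR; 3 higher and 2 lower with unadjusted p under 0.05, and 2 and 1 by DESeq2). Gpx3, the secreted plasma form, had a log2 change of -0.43 ± 0.18, Glrx3 of -0.26 ± 0.08 and Prdx2 of 0.40 ± 0.16, none past the threshold (edgeR adjusted p = 0.173, 0.0747 and 0.167). Their median log2 change was 0.06.

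NRF2 is the transcription factor that raises antioxidant genes under oxidative stress. Genes of its pathway, which hold its regulators as well as its targets, did not move one way. Of these 18 genes 2 rose, Pgd and Keap1, and 1 fell, Gsta3 (edgeR, with 4 higher and 5 lower with unadjusted p under 0.05, and 4 and 2 by DESeq2). Without any single WT replicate 0 were called higher. Pgd, an NADPH-making enzyme of the pentose phosphate pathway, was at 394 ± 69.7 CPM in the labelled knockouts and 221 ± 11.0 CPM in WT, and Gsta3, a glutathione transferase, at 23.4 ± 3.97 and 56.2 ± 13.0 CPM (SD, n = 3 each; edgeR adjusted p = 0.0178 and 0.0125). Keap1, the protein that holds NRF2 in check, rose by 0.29 on the log2 scale (edgeR adjusted p = 0.0454). Hmox1, heme oxygenase, had a log2 change of -1.07 ± 0.38, and Gsta4 of 0.82 ± 0.23, neither past the threshold (edgeR adjusted p = 0.13 and 0.0725). The list's median log2 change was -0.04.

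Genes of selenoprotein synthesis and further selenoproteins had 0 of 18 called by edgeR, where 3 were higher and 1 lower with unadjusted p under 0.05, and 0 by DESeq2 and limma-voom. Sephs2, which makes the selenium donor, had a log2 change of 0.42 ± 0.15, Selenoh of 0.29, Selenoi of -0.24 and Sepsecs of -0.15 (edgeR adjusted p = 0.127, 0.132, 0.122 and 0.623). Peroxisome genes, the compartment of catalase, had 3 of 20 higher, Pex14, Pex16 and Abcd3 (1.57-fold to 1.66-fold), and 0 lower (edgeR; 8 and 0 with unadjusted p under 0.05, and 7 and 0 by DESeq2). Their median log2 change was 0.21 with 19 of 20 above 0, while Cat was at -0.19. The lowest of the list were Pxmp2 and Pxmp4, with log2 changes of -0.30 and 0.07 (edgeR adjusted p = 0.322 and 0.584).

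Respiratory and other genes that produce or limit mitochondrial oxidants had 11 of 17 higher and 0 lower (edgeR; 12 and 0 with unadjusted p under 0.05, and 11 and 0 by DESeq2), with a median log2 change of 0.61. Gpd2, the glycerol phosphate dehydrogenase that feeds electrons to the respiratory chain, was at 234 ± 60.9 CPM in the labelled knockouts and 85.6 ± 22.2 CPM in WT (SD, n = 3 each; edgeR adjusted p = 0.0175). Maoa and Cybb, sources of peroxide and superoxide outside the respiratory chain, had log2 changes of -0.28 and -0.21 (edgeR adjusted p = 0.197 and 0.239). Without WT replicate 2 or WT replicate 3 edgeR called 0 genes of the NADPH, glutathione, other antioxidant, 22-gene mitochondrial and oxidant source lists, and without the library labelled Hsp20 KO replicate 1 it called 3, 2, 3, 10 and 12 in either direction. Of the peroxisome list it called 7 higher without the library labelled Hsp20 KO replicate 1 and 1 higher without WT replicate 2 or 3, and of 8 B cell markers 7 lower without labelled knockout replicate 2, against 0 with all libraries.

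The 300-base windows around the member starts in the RefSeq table (GRCm38.p6, 15 windows for 9 members, all but Gsr) were searched on both strands for short motifs. None held TGACNNNGC, the core of the antioxidant response element bound by NRF2, which 12.4% of all 32851 windows hold. None held TNAAGGTCA, an estrogen-related receptor element, which 1.28% of all windows hold. The GC box GGGCGG was in 12 of the 15 windows, at least 1 for each of the 9 members searched, and in 35.7% of all windows. Sod2 held 4, the most of any member window, and is shown with them in capitals (chr17:13007589-13007888, plus strand).
Sod2: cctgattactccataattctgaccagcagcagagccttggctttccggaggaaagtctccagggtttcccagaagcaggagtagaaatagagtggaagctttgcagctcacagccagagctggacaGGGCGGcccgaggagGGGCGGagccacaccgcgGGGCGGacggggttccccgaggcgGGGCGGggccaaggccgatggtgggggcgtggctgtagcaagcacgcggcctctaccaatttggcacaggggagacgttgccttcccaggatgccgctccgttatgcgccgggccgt
A match describes letters only, and their absence from these windows says nothing of elements elsewhere.

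The genes most like Sod2, Prdx3 and Gpx4 across the 6 libraries were found by the root mean square difference of log2 CPM deviations from each gene's own mean, among 10512 genes with at least 10 CPM on average. Nearest to Sod2 were Gm7030 (0.02), Ubac1 (0.03) and Pelo (0.03). Nearest to Prdx3 were Necap2 (0.02), Gba2 (0.03) and Bcap29 (0.03), and among the 3 nearest to Gpx4 were Slc19a1 and Pgam1 (0.05 each). These values describe 6 libraries that fall into the 2 labelled groups.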

How the data were processed

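The table the authors deposited holds raw counts of reads, whole numbers for each gene and mouse. Per the submitters' processing notes the tools were TopHat, DESeq, bcl2fastq and CASAVA 1.8, on mm10 (GRCm38); the counting program, its annotation and its strand setting were not given in the sources used here. Columns were matched by the sample names in the labels. A RefSeq table of GRCm38.p6 gave symbols for 24334 of 24415 gene identifiers, and the other 81 held 1.30% to 5.74% of a library's counts.

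Counts were tested with edgeR 4.0.16 in R 4.3.3 (filterByExpr with minimum count 10 and minimum total 15, TMM, quasi-likelihood F test on genotype alone, Benjamini-Hochberg adjustment over 15994 genes). SE and 95% interval follow from the F statistic and its degrees of freedom. CPM uses TMM-scaled totals, and log2 CPM a prior count of 2. Lengths are those of GENCODE M21 principal transcripts or of all exons. With 3 libraries a group the precision is limited by the spread between mice (biological coefficient of variation 14.8%) and, for low genes, by the smallest library. In counts drawn from these libraries' means and dispersions (15889 genes) the test recovered 31.3% of genes changed 1.5-fold and 70.1% of those changed 2-fold. That draw gave 141 calls, against 1223 in the data, so its cut on the unadjusted p was stricter. Its changed genes were also taken from all levels of expression. The test can thus miss changes of this size, but how often it does so for the members was not tested. Libraries within a group all differed by more than sampling noise (chi-square divided by degrees of freedom 17.0 or more).

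The members and gene lists were chosen with earlier results of these data known. Named genes were the 10 members, Hspb6, Ucp1 and Nnt, and the 2 highest and 2 lowest log2 changes of each pathway list. The 3 genes nearest in pattern to Sod2, Prdx3 and Gpx4 were named too. Trmt112, the cytosolic partners, other single markers and other called list genes were named after their values were seen. Some results computed from the table are not reported here. Alternatives were other scaling factors, other filters, DESeq2 1.42.0, limma-voom (limma 3.58.1), a stricter threshold, a replicate block and leaving out each library.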

Additional observations from a re-analysis of the deposited data

How the results depend on the processing

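Of the 130 alternative values of the members' log2 changes, all kept their sign, 119 kept their side of the threshold, 6 lost it (all Txnrd2) and 5 gained it. The count of members called higher, 1 with all libraries, was 3 with DESeq2, 0 at an adjusted p under 0.01, 0 with the replicate block and between 0 and 3 when each library was left out; members called lower were 0 except with DESeq2, where there was 1. Over all genes, 676 higher and 547 lower calls became 1135 and 1024 with DESeq2, 94 and 58 at an adjusted p under 0.01, 226 and 169 with the replicate block, and between 75 and 941 higher and 53 and 730 lower when each library was left out, fewest without WT replicate 3 and most without the library labelled Hsp20 KO replicate 1. Between same-numbered libraries the correlations of deviations from the group means were -0.038, 0.092 and -0.096. With 3 libraries a group these cannot show whether mice were paired, and the labels do not say. Under the replicate block Txnrd2 had an edgeR adjusted p of 0.0913. With each library left out, the log2 ratio of Prdx5 to Trmt112 (0.073) ran from -0.041 to 0.236, negative without the library labelled Hsp20 KO replicate 3. Why calls moved under DESeq2 was not tested; fewer libraries leave fewer degrees of freedom. Leave-out of libraries for the ratios, and all alternatives for the other gene lists, were chosen after seeing the data; for those lists 386 of 476 alternative counts stayed within 1.5 times.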
